A study of Mus musculus with 8 samples.

Results

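The regions described here are sites near gene start sites that carried an ATAC-seq peak in mouse embryonic stem cells (ESCs) and in none of the other groups of the series. ATAC-seq uses a transposase that cuts and tags accessible DNA, so a peak marks open chromatin. The members were selected on presence and absence in the 4 deposited peak lists. Peaks of all lists that lay within 400 bp of each other were merged, and a merged region was kept where it held an ESC peak, held no peak of any other list and lay within 5 kb of a GENCODE start site. This gave 7245 members of 101701 merged regions, or 7.12% (95% Wilson interval 6.97% to 7.28%). They made up 29.6% of the 24510 regions with an ESC peak alone (29.0% to 30.1%), and 31.0% of the 23344 regions with an ESC peak that lay near a start site (30.4% to 31.6%). Of those 23344 regions, 63.1% also held a MEF peak, 57.2% a day 5 peak and 60.5% a day 10 peak. Because peak presence chose the members, these counts are a description and not a test.

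The series compared 4 groups of 2 libraries each. MEFs, the starting cells, were wild-type embryonic fibroblasts of strain C57BL/6J-OG2, whose transgene reports the activity of Pou5f1 (Oct4) with GFP. The day 5 and day 10 groups were OG2 MEFs infected with retroviruses for Pou5f1, Sox2, Klf4 and Myc (OSKM), carrying a FLAG control vector, in ESC medium with vitamin C. They are mixed populations in which not every cell reaches pluripotency. ESCs, the end point, carried no virus, and the labels give ESC replicate 1 the strain C57Bl6J and ESC replicate 2 the strain C57BL/6J-OG2. The labels place ESCs on a feeder layer of MEFs, whereas the study's methods describe gelatin and 2i/L medium for them. Cell type and medium cannot be told apart. Each group was deposited as 1 list, with 35226 (day 10) to 56514 (MEF) peaks and 48486 in ESCs. Read numbers were not given, so the depth is unknown, no spread between libraries could be computed, and all intervals given here cover counting error over regions only. A region without a peak in a list is a region not listed, which is not proof of closed chromatin.

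Most mammalian promoters lie in CpG islands and are open in nearly all cells, while cell-type-specific sites more often lie away from them and hold binding sites of that cell type's own factors. In ESCs, OCT4, SOX2 and NANOG bind together with ESRRB, KLF factors and TFCP2L1 to keep the pluripotent state. OCT4 recognises an 8-base sequence known as the octamer, often next to a SOX site, in a joint element called the OCT4-SOX2 composite. Several of these factors also bind near the genes that encode them.

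Sequences around motif matches are shown to give the letters behind the motif shares below. They come from the GRCm38 (mm10) assembly of RefSeq, read 5′ to 3′ on the strand of the motif, with 1 match in capitals and 40 bp on either side. Other matches in the runs are not marked, among them a further SOX match and a KLF match in the Tdpoz4 run. The composite of the Ankrd27 run overlaps an octamer and a SOX match that are not marked on their own. The middles of the Sgk1, Fgfr2, Jarid2, Esrrb, Ankrd27 and Dennd1b peaks and of the Cobl peak with the TFCP2L1 match fell in introns, and those of the others fell outside annotated genes. Regions were taken by fold enrichment from those of listed genes first, and Nanog and the Esrrb region were added after their values were seen. The regions printed for ESRRB had low folds, 2.18 (Esrrb), 2.22 (Jarid2) and 2.43 (Cobl), against a median of 3.27 over all members. The first set holds the octamer, the composite and the SOX sequence.
Dppa3 (chr6:122624641-122624728, - strand): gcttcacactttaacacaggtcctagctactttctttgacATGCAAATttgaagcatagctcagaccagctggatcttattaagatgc
Sgk1 (chr10:21988704-21988791, + strand): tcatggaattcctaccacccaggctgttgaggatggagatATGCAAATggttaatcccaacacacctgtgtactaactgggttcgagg
Nanog (chr6:122707374-122707465, - strand): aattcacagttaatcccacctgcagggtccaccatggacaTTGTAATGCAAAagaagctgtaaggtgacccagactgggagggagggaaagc
Ankrd27 (chr7:35617591-35617682, - strand): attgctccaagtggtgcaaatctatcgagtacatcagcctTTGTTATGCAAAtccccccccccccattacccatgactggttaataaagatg
Lum (chr10:97562977-97563063, + strand): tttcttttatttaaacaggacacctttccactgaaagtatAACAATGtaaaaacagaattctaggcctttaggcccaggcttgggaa
Tdpoz4 (chr3:93801353-93801439, - strand): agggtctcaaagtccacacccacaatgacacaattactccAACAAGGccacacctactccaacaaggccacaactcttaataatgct

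The second set holds the sequences of ESRRB, KLF factors and TFCP2L1. The Cobl locus appears more than once because separate members near its start sites held matches to different motifs.
Esrrb (chr12:86502019-86502107, + strand): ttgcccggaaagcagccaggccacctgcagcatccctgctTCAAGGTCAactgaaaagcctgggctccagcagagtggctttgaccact
Jarid2 (chr13:44735636-44735724, + strand): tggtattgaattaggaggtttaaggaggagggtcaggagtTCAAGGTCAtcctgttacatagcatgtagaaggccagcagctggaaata
Cobl (chr11:12469667-12469755, + strand): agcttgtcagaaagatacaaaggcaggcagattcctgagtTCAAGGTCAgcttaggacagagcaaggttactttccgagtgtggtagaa
Fgfr2 (chr7:130179147-130179234, - strand): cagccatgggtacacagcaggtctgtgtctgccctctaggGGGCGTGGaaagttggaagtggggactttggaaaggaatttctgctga
Ooep (chr9:78375011-78375098, - strand): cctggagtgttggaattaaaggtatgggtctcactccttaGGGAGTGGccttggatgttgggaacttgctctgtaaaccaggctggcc
Cobl (chr11:12460002-12460095, - strand): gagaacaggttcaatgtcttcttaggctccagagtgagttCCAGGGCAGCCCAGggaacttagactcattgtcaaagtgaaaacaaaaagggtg
Dennd1b (chr1:139122601-139122694, + strand): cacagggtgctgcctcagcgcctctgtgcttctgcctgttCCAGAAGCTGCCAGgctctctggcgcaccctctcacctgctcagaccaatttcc

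The Nanog region lies at the start site of a homeobox gene of the naive pluripotency network. Esrrb encodes an orphan nuclear receptor, and its region lies in an intron of the gene and holds the sequence that the protein itself recognises. Dppa3 encodes the maternal factor STELLA, Sgk1 a kinase, Jarid2 a partner of the Polycomb complex that deposits H3K27me3, Fgfr2 an FGF receptor, Ooep an oocyte-expressed protein and Lum the matrix proteoglycan lumican. Ankrd27 (fold 4.77) and Dennd1b (fold 6.87) stood outside the lists, and the Dennd1b window was repeat-masked over its whole length. The Tdpoz4 window was 74% repeat-masked and the Ooep window 57.5%.

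In position, members sat between the other promoter-near classes. A start site was covered by 1193 members (16.5%, interval 15.6% to 17.3%), a further 1638 lay 1 to 1000 bp from one, and 4414 lay farther out, up to 5 kb. Within 1 kb of a start site were 39.1% of members (38% to 40.2%), compared with 33.6% of the 7496 promoter-near regions with a MEF peak alone, a difference of 5.46 percentage points (Newcombe 95% interval 3.90 to 7.01). Among the 12068 promoter-near regions open in all 4 lists the share was 94.1%, a difference for members of -55.0 points (-56.2 to -53.8). The 500 bp on the downstream side of the nearest start site held the middle of 12.4% of members, and the 500 bp on the upstream side 11.4%. For regions open in all 4 lists these bins held 45.8% and 37.9%. Beyond 1 kb, each 0.5 kb bin held between 3.16% and 4.62% of members.

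**Figure D1:**
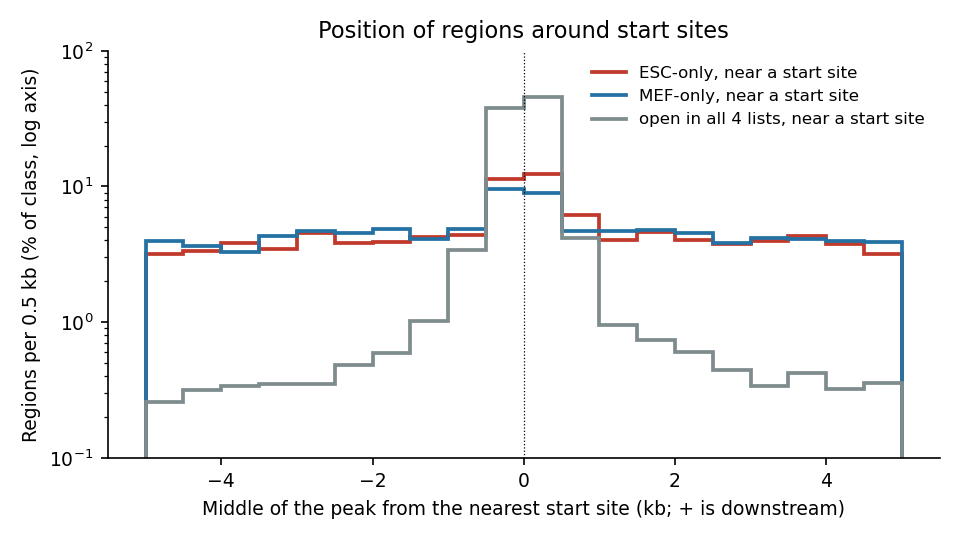
Middle of each peak relative to its nearest start site, in kb with positive values downstream, against the share of the class per 0.5 kb bin on a log axis. Members (red) and MEF-only regions (blue) reached 12.4% and 9.51% in their highest bins, while regions open in all 4 lists (grey) reached 45.8%; middles beyond 5 kb are not drawn.

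A covered start site was often an internal one. Of the 1193 members over a start site, 760 covered a start site of a protein-coding gene. Of these, 337 (44.3%, 40.8% to 47.9%) covered the 5′-most start site of that gene and 423 covered only a start site inside it. The nearest start site belonged to a protein-coding gene for 56% of members, to a processed pseudogene for 1000 members and to a lincRNA for 707. Pseudogenes of all kinds were nearest for 16.8% of members, 12.6% of MEF-only and 1.68% of all-list regions. The member share exceeded the MEF-only share by 4.24 points (3.10 to 5.39). The middle of the peak fell in an intron for 49.0% of members, outside annotated genes for 30.5% and in an exon for 20.5%, which was 7.02 points more exonic than in MEF-only regions (5.81 to 8.23). With start sites of protein-coding transcripts alone, 2911 regions would have met the rule.

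Each member held exactly 1 ESC peak, and the median width was 501 bp. The authors' fold enrichment, a ratio over background given for each peak, had a median of 3.27 in members (quartiles 2.91 and 3.79), 3.41 in ESC-only regions beyond 5 kb and 3.83 in promoter-near regions open in all lists. Over all 48486 ESC peaks the median was 3.48, and 38.2% of members lay in the higher-fold part of the list when it was split at the middle. These values describe the peaks that chose the members. Just inside the 5 kb limit stood a region 5000 bp from Gm32296 (fold 3.80) and one 5000 bp from Ogn (fold 3.68), and just outside it were regions 5001 bp from Gm26359 (fold 3.11) and Rpl27 (fold 3.15). The members closest to another region were 404 bp from it, near Fam229b (fold 3.24) and Usp49 (fold 3.11). Another region of any class lay within 5 kb of 44.2% of members, and the median gap to the next region was 5711 bp.

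Most members were poor in CpG. In 200 bp windows at the middle of the peak, the median GC content was 49% and the median CpG observed-to-expected ratio 0.238. Promoter-near regions open in all 4 lists had medians of 65% and 0.795. A window was counted as CpG-rich above 50% GC and a ratio of 0.6. This held for 7.54% of members (6.95% to 8.17%), 3.59% of MEF-only regions and 71.7% of all-list regions, so members exceeded MEF-only regions by 3.95 points (3.21 to 4.69). The composition changed with distance. Members over a start site had a median GC content of 53.5% and a ratio of 0.355, and 20.2% of them were CpG-rich (18% to 22.6%). Members over 1 kb away from one had 47.5%, 0.211 and 3.90% (3.36% to 4.51%).

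**Figure D2:**
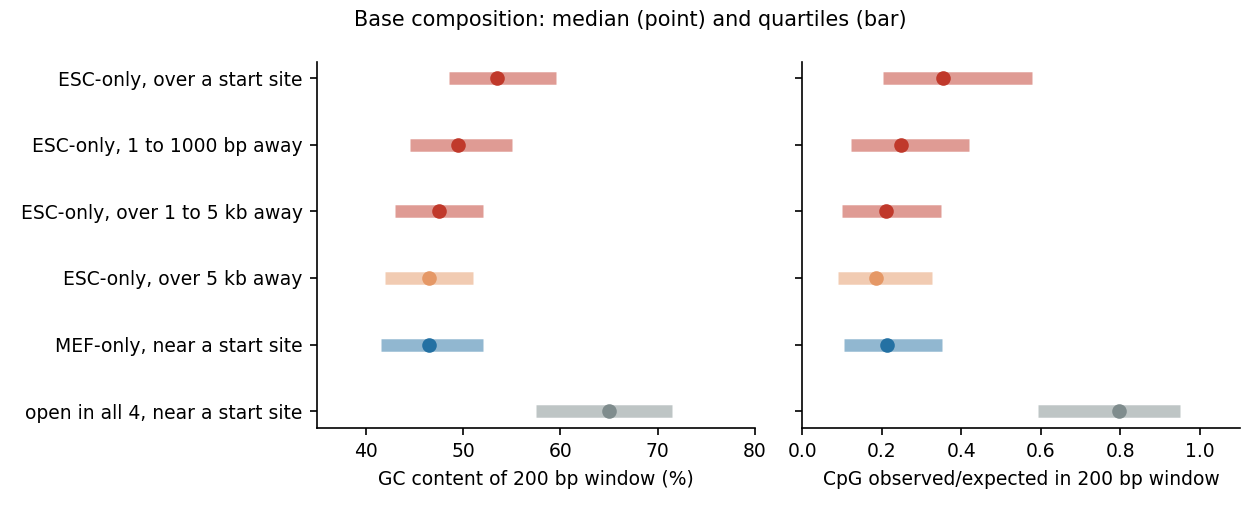
Median (points) and quartiles (bars) of GC content in % and of the CpG observed-to-expected ratio in 200 bp windows, for members by distance from a start site and for the comparison classes. Members over a start site, at 53.5% and 0.355, lie between the more distant members and the promoter-near regions open in all 4 lists, at 65% and 0.795.

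Repeat-derived sequence was common among the members. More than 50% of the window was repeat-masked in 17.8% of members (17% to 18.7%), in 5.44% of MEF-only and in 1.02% of all-list regions. The excess over MEF-only regions was 12.4 points (11.4 to 13.4). ESC-only regions beyond 5 kb reached 24.5%, and the member share differed from it by -6.67 points (-7.75 to -5.57). Among members the share rose from 7.71% over a start site to 13.9% at 1 to 1000 bp and 22.0% farther out. The median fold enrichment was 3.48 in the 1292 repeat-masked members and 3.22 in the 2616 members whose windows held no repeat-masked base. The kind of repeat was not analysed here, and reads from repeat copies are hard to place, so the part of mapping in these values was not tested.

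Taken over all members, motifs of the pluripotency factors were more frequent at the peaks than beside them, which changed with distance as given below. Each window was searched on both strands and compared with windows 1 kb to each side. The ESRRB sequence TCAAGGTCA was found in 1.70% of members and 0.490% of flanks, a difference of 1.21 points (0.906 to 1.55). It occurred in 0.688% of all merged regions. For the octamer ATGCAAAT the shares were 2.48% and 1.12% (difference 1.36, interval 0.978 to 1.78), with 2.22% of all regions. The SOX sequence AACAANG was present in 15.7% of members and 11.8% of flanks (3.88, 2.90 to 4.88), with 14.3% of all regions, and the KLF sequence GGGNGTGG in 9.62% and 6.20% (3.42, 2.64 to 4.21), with 8.43% of all regions. At least 1 of these 4 was present in 26.9% of members (25.9% to 27.9%) and in 18.6% of flanks, and 186 members held 2 or more. The KLF excess was not particular to ESC peaks, since promoter-near regions open in all 4 lists held KLF matches in 13.4% of windows and 7.84% of flanks (5.53, 4.84 to 6.23), and members differed from them by -3.75 points (-4.65 to -2.83). A match is a run of letters and no evidence of binding.

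In MEF-only regions near start sites, none of these 4 motifs had a difference from the flanks whose interval lay above 0. ESRRB matches were found in 0.360% of windows and 0.534% of flanks (difference -0.17 points, -0.35 to 0.02), and octamer matches in 1.00% and 1.07% (-0.07, -0.34 to 0.22). SOX matches were found in 10.4% and 11.5% (-1.15, -2.0 to -0.28), and KLF matches in 6.51% and 6.07% (0.440, -0.23 to 1.13). Their leading motif was that of AP-1, TGANTCA, in 28.3% of windows, compared with 5.80% of members, 5.21% of member flanks and 15.3% of all regions. In members the AP-1 difference from the flanks was 0.587 points and its interval included 0 (-0.05 to 1.25). The TEAD sequence ACATTCC was in 5.85% of members and 2.51% of their flanks (3.34, 2.76 to 3.95) and, in MEF-only regions, in 6.22% and 2.57% (3.65, 3.06 to 4.27), with 5.22% of all regions. RUNX matches, TGTGGTT, were fewer in members than in their flanks (4.06% and 5.38%, -1.33, -1.90 to -0.73), with 5.17% of all regions.

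**Figure D3:**
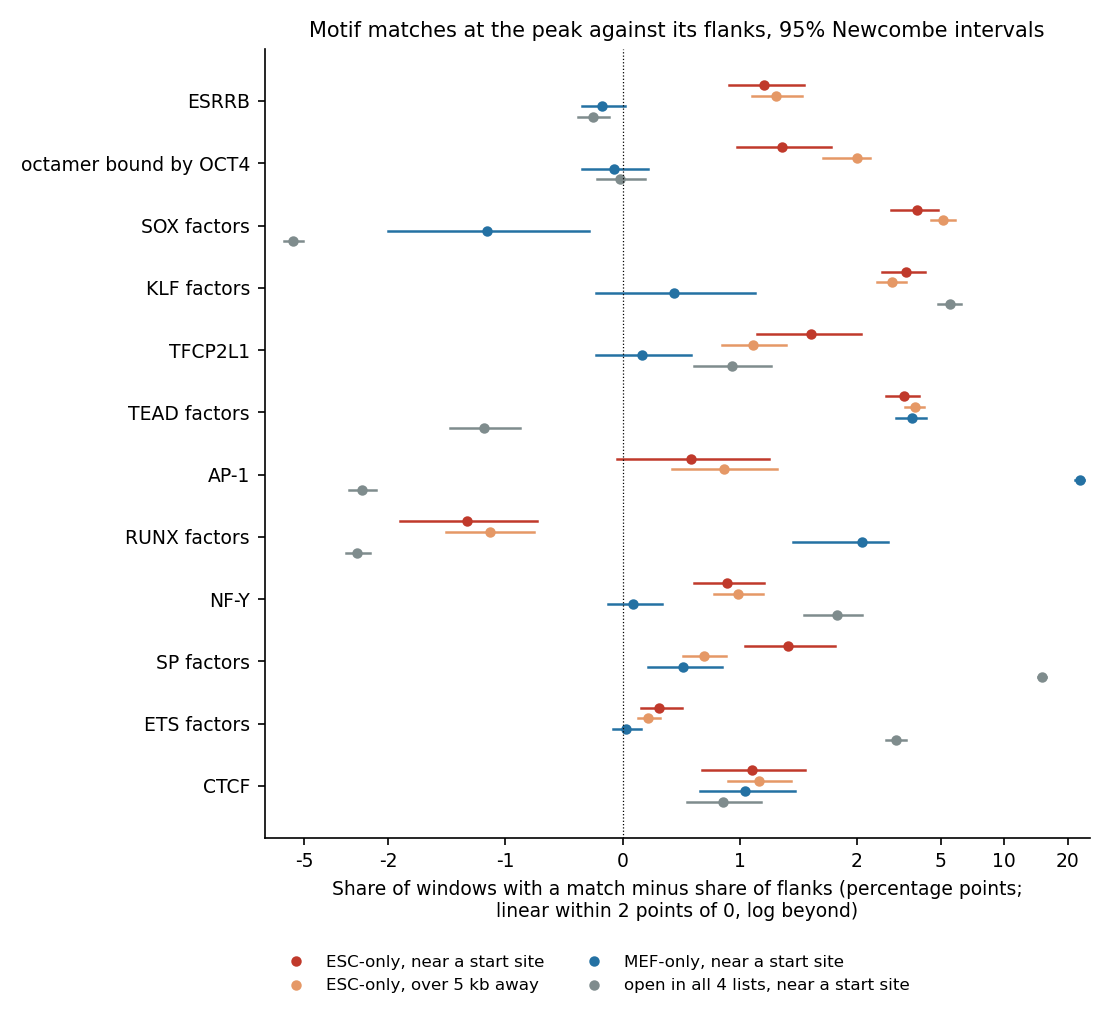
Share of 200 bp windows with a motif match minus the share of flanking windows, in percentage points, with 95% Newcombe intervals as lines; the axis is linear within 2 points of 0 and logarithmic beyond. ESRRB, octamer and SOX matches exceed the flanks in members (red, 1.21, 1.36 and 3.88 points) and in ESC-only regions beyond 5 kb (orange), and AP-1 in MEF-only regions (blue).

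In window shares, before any comparison with flanks, the ESC-only regions near start sites and beyond 5 kb differed in which motif was more frequent. Compared with the 17265 ESC-only regions beyond 5 kb, the octamer share of members differed by -0.91 points (-1.35 to -0.45) and the SOX share by -2.30 points (-3.31 to -1.28). KLF matches were 1.55 points more frequent in members (0.768 to 2.35), and TFCP2L1 matches were 0.798 points more frequent (0.329 to 1.30), at 3.45% of members and 2.38% of all regions. The ESRRB shares of 1.70% and 1.85% could not be told apart (difference -0.15, -0.50 to 0.23). Against the flanks, the KLF difference was 3.42 points in members (2.64 to 4.21) and 2.94 beyond 5 kb (2.48 to 3.42). For TFCP2L1 the differences were 1.61 (1.15 to 2.10) and 1.11 (0.846 to 1.39). The octamer differences were 1.36 (0.978 to 1.78) and 2.00 (1.71 to 2.30). SOX differences were 3.88 (2.90 to 4.88) and 5.15 (4.48 to 5.83). In each of these pairs the intervals overlapped. The OCT4-SOX2 composite was rare. It was found in 8 members, or 0.110%, in 34 ESC-only regions beyond 5 kb, or 0.197%, and in 0.0914% of all regions. Its letters overlap those of the octamer and of the SOX sequence, so these counts are not independent.

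A change with distance was present within the members. Over a start site, ESRRB matches were found in 0.838% of members, against 1.88% of members over 1 kb away (difference -1.04 points, -1.63 to -0.26). Octamer matches were found in 1.42% and 2.81% (-1.38, -2.14 to -0.43), and SOX matches in 11.7% and 17.7% (-6.02, -8.07 to -3.79). Against their own flanks, members over a start site had an ESRRB difference of 0.251 points (-0.30 to 0.99). Theirs was 0.377 for the octamer (-0.35 to 1.29) and 0.838 for SOX (-1.31 to 3.12), so these intervals included 0. Over 1 kb away the same differences were 1.42 (1.02 to 1.88), 1.59 (1.07 to 2.16) and 5.56 (4.26 to 6.89). At 1 to 1000 bp the SOX interval also included 0 (1.56, -0.39 to 3.59). The ESRRB and octamer differences there were 1.34 (0.719 to 2.14) and 1.47 (0.721 to 2.37). The KLF difference was 4.90 over a start site (3.00 to 6.96), 1.89 at 1 to 1000 bp (0.336 to 3.56) and 3.58 farther out (2.59 to 4.61). Motifs common at promoters were more frequent over a start site than farther out. SP matches, GGGGCGGG, were found in 4.69% of members over a start site and 1.61% of the more distant ones (3.09, 1.95 to 4.48), with 3.50% of all regions. For NF-Y, CCAATCAG, the shares were 2.26% and 1.27% (0.995, 0.198 to 2.05), with 1.1% of all regions, and for ETS factors, CCGGAAGT, 1.26% and 0.340% (0.918, 0.377 to 1.73), with 0.636% of all regions. KLF matches, at 10.6% and 9.74%, were not distinguishable between the distances (0.820, -1.04 to 2.87).

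A member lay within 5 kb of a start site of 3948 of the 21938 protein-coding genes, or 18% (17.5% to 18.5%), which is the background for the lists below. Of these genes, 3353 had exactly 1 member, 57.6% also had a region open in all 4 lists, and 76.0% also had a region with a MEF peak. For 851 genes, 21.6% of those with a member (20.3% to 22.9%), every region within 5 kb of a start site was a member. Genes with more start sites had more chances to be counted. The median number of start sites was 3 over all protein-coding genes, 5 in genes with a member and 2 in the 851 genes with members alone. Counting the 5′-most start site of each gene only, a choice made after seeing the data, 2059 genes had a member, or 9.39%.

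Of 18 naive pluripotency regulators, 10 had a member (55.6%), 4 of them with no other class of region, and 8 had one near the 5′-most start site. Nanog carried a member of 372 bp over its start site (chr6:122707158-122707529), with a fold of 2.64, the composite match shown above and a region open in all 4 lists 3988 bp away. Zfp42, which encodes REX1, had a single region, a member of 1947 bp over its start site (chr8:43305536-43307482, fold 3.32). Nr0b1, which encodes the nuclear receptor DAX1, had a member of 2299 bp over its start site and one 3834 bp away (folds 2.57 and 3.05) and no other region. Prdm14, a repressor of differentiation genes, likewise had only members, one of 1056 bp lying 506 bp from its start site (fold 2.23) and one of 23 bp lying 4908 bp from it (fold 3.37).

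Among the other regulators, Sox2, Klf2 and Mybl2 also had a region open in all lists. The Sox2 start site lay in a region of 2204 bp open in all 4 lists, and its member, of 355 bp, lay 3309 bp downstream (fold 2.58). Klf2 had the same arrangement with a member 2435 bp upstream (fold 2.79). Mybl2, a cell cycle factor, had members 1792 bp upstream and in an intron (folds 2.81 and 2.87). Esrrb had 4 members among 5 regions, with folds of 2.86, 2.18, 2.18 and 2.04, of which 2 held an ESRRB match. The pair with equal folds carried the name of 1 peak in the deposited list, as did other members that share a peak name (54 in all, 0.745%). Nr5a2, which encodes LRH-1, had 2 members over internal start sites (folds 3.09 and 2.58). Tcl1, an activator of AKT signalling, had a single region, a member 1950 bp upstream (fold 3.49). Genes of this list without a member included Klf4, Klf5, Pou5f1, Sall4, Tbx3, Tfap2c and Tfcp2l1. Folds of the 17 regions in this list ran from 2.04 to 3.49 with a median of 2.79, below the median of 3.27 over all members, and their median width was 875 bp.

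**Figure D4:**
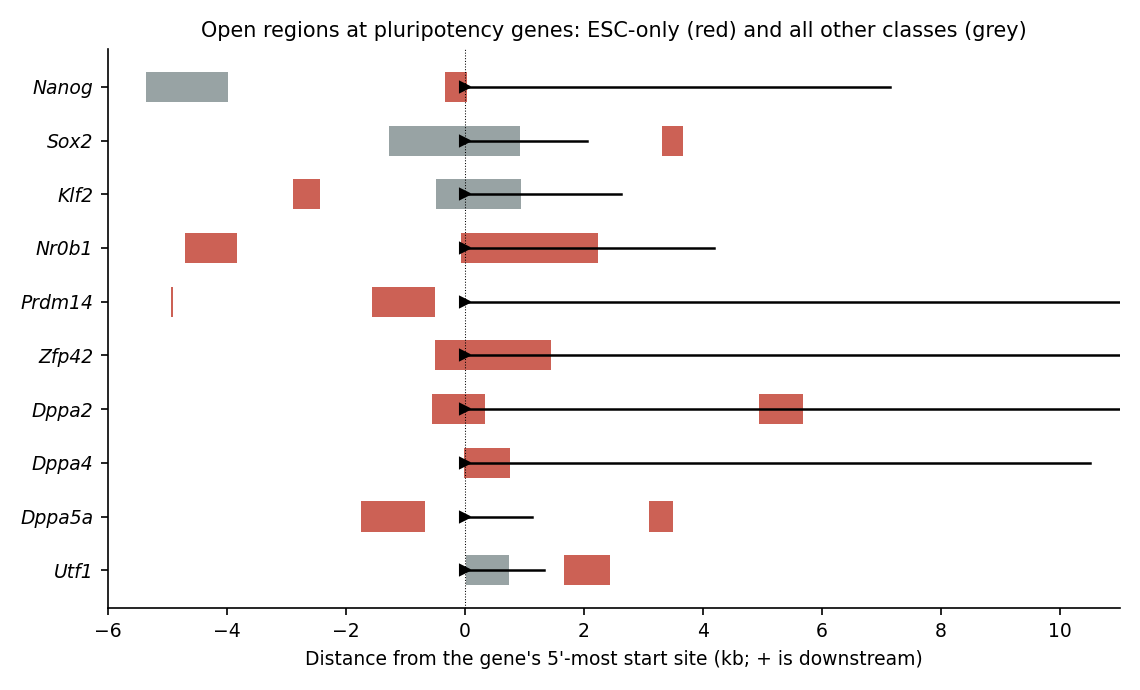
Regions at 10 pluripotency genes drawn to scale from the 5′-most start site (arrowhead), in kb with positive values downstream; red boxes are members, grey boxes regions of any other class, and black lines the gene, cut off at 11 kb. Nr0b1, Prdm14, Zfp42, Dppa2, Dppa4 and Dppa5a hold red boxes alone, and the Sox2, Klf2 and Utf1 start sites lie at or beside grey boxes.

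Of 24 further pluripotency markers, 12 had a member (50.0%), 4 of them with members alone, and 11 had one near the 5′-most start site. Dppa2 and Dppa4, neighbouring genes for chromatin proteins of early embryos, each had a member over the start site (chr16:48303356-48304238, fold 4.38, and chr16:48283720-48284492, fold 3.29), and neither had a region of another class. A second Dppa2 member lay in an intron (fold 3.17). Dppa5a had members 667 bp upstream and 3089 bp from its start site (folds 2.88 and 2.38). The Dppa3 member lay 1371 bp upstream (fold 3.63) and held the octamer shown above. Utf1, a chromatin-associated factor of pluripotent cells, had a member 1665 bp downstream, with the same fold of 3.01 as the all-list region at its start site, and Tdgf1, the Nodal co-receptor CRIPTO, had one 416 bp upstream (fold 3.46). Ooep had a member as its only region (fold 4.10). The remaining genes were Alpl, Cobl, Fbxo15, Fgf4 and Fut9. Cobl, which encodes an actin nucleator, stood out with 5 members among 10 regions, with folds from 2.30 to 3.44.

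Members at the germline and meiosis genes were mostly the only region of their gene. Of 45 such genes, 12 had a member (26.7%, against 18% of all protein-coding genes), and 11 had one near the 5′-most start site. For 10 of the 12, no region of another class was present, which held for 21.6% of all genes with a member. Of their 14 regions, 9 covered a start site, and the median fold was 3.61. The genes included Ddx4, the germ cell RNA helicase VASA (fold 3.47), Dmc1, the meiotic recombinase (3.68), Rec8, a meiotic cohesin subunit (4.11), Syce1, a part of the synaptonemal complex (3.99), Tex19.1 (3.13) and Rpl10l, a retrogene for a ribosomal protein (4.01). Each of these 6 had a member over its start site and no other region. Hormad2, an axis protein of meiotic chromosomes, had 2 members and no other region (folds 3.55 and 3.36). Meioc, Stra8 and Fkbp6 also had members alone. Tdrd12, which acts in the piRNA pathway, had a start-site member (fold 4.35) beside a MEF-only region, and Kit, the receptor for stem cell factor, had 2 members inside the gene among 4 regions.

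Of 20 genes of the 2-cell stage, 3 had a member (15.0%, near the background of 18%), namely Duxf3 (fold 3.80), Spz1 (3.96) and Tdpoz4 (3.50). Duxf3 and Tdpoz4 belong to families of near-identical copies, where reads cannot be placed with certainty. Of 13 formative and primed genes, 5 had one (38.5%). Sox3 had a member over its start site as its only region (fold 2.72), the Otx2 member lay 135 bp from a start site (fold 3.41), and Foxd3, Zic2 and Cdh2 had the others. Among 26 germ-layer and trophoblast factors, 4 had a member (15.4%). Cdx2, a trophoblast factor, had 2 members (folds 2.73 and 3.09) and no other region, and Elf5, Gata4 and Gsc had 1 each (folds 3.07, 2.81 and 3.12).

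Of the signalling lists, the FGF and ERK pathway had members at 12 of 21 genes (57.1%), but none of these genes had members alone, 10 also had a region open in all 4 lists, and 7 had a member near the 5′-most start site. They included the ligands Fgf4 and Fgf17, the receptors Fgfr1, Fgfr2 and Fgfr3, the adaptor Frs2, the small GTPase Mras, the feedback inhibitors Dusp6 and Spry1 and the transcription factors Egr1, Etv1 and Etv5. The Fgf4 members lay 3747 bp and 2803 bp from start sites (folds 3.39 and 2.48), and the Fgfr1 member covered one (fold 3.07). In the LIF and STAT3 pathway, 3 of 16 genes had a member (18.8%). The receptor Lifr had one over its start site (fold 3.72), the kinase Jak1 had 1 and Sgk1 had 3. For the Nodal, TGF-beta and BMP pathway the count was 3 of 25 (12%), with the ligand Bmp4, the SMAD repressor Skil and Tdgf1. For the Wnt pathway it was 5 of 23 (21.7%), with the receptors Lrp6 and Lgr4, the destruction-complex proteins Apc and Axin2, and the target Cdx1.

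DNA methylation and histone modifiers had members at 10 of 30 genes (33.3%), all of which also had a region open in all 4 lists. Their median number of start sites was 10, and 2 had a member near the 5′-most start site (6.67%, near the background of 9.39%). Tet1, which oxidises methylated cytosine, and the Polycomb-associated Mtf2 had 3 members each, with folds from 2.14 to 3.04 and from 3.13 to 4.35, and the DNA methyltransferase Dnmt3a had 2 (folds 4.42 and 3.82). Dnmt1, the maintenance methyltransferase (fold 2.76), Eed, a Polycomb subunit (3.35), Ehmt1, Jarid2, Kdm2b, Kdm3a and Phf20 had 1 each. Of these 15 regions, the Jarid2 one held the ESRRB match shown above.

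Epithelial genes had members at 9 of 32 genes (28.1%), and 5 of these lay near the 5′-most start site. Krt18, a keratin, and Marveld3, a tight junction protein, each had a member over the start site (folds 2.92 and 3.23). The Cdh1 member lay in an intron, 4692 bp from a start site (fold 2.63), while the start site of this epithelial cadherin lay in a region with day 5 and ESC peaks. Cldn7 had a member as its only region (fold 2.72). Other members lay at Ap1m2, Esrp1, Jup and Rab25. Fibroblast and mesenchymal genes had members at 2 of 30 (6.67%, against 18% over all protein-coding genes), at Fn1 (folds 2.44 and 3.86, over internal start sites) and at Lum (fold 4.75, 1883 bp upstream). All of these lists were compared with the background as counts, with no list test.

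**Figure D5:**
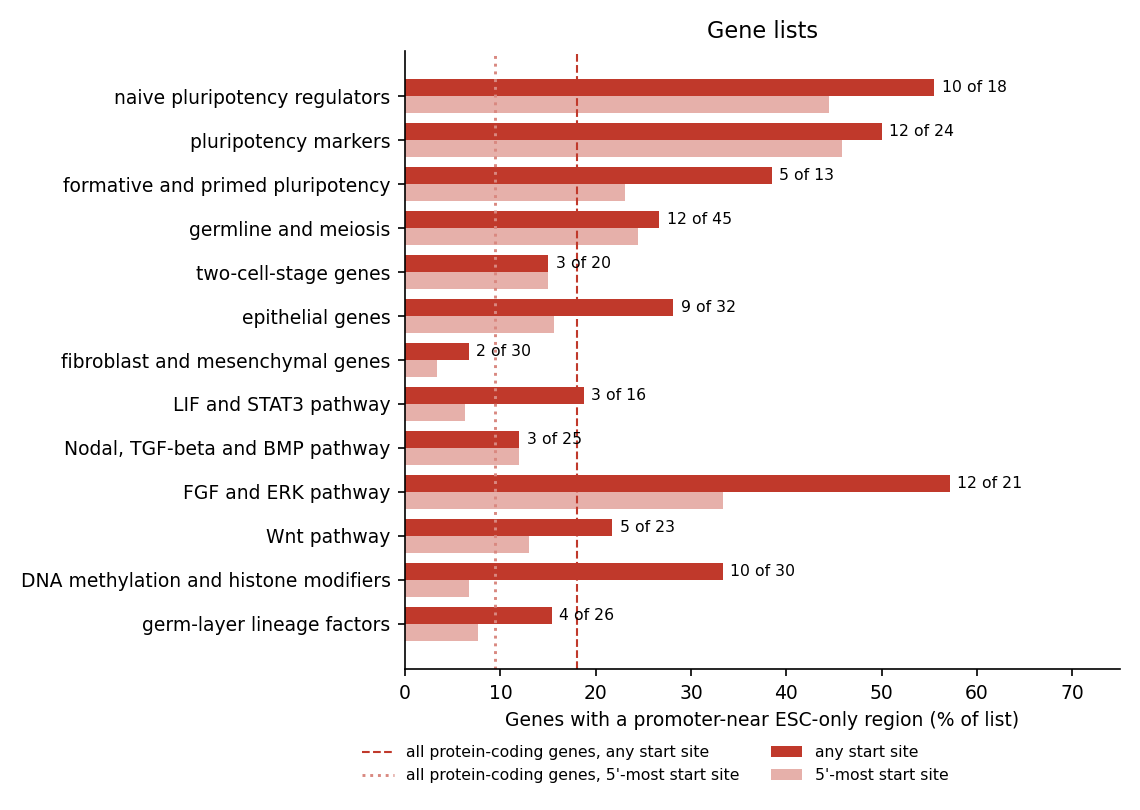
Share of each gene list with a member within 5 kb of any start site (dark bars, with counts) or of the 5′-most start site only (light bars), with the shares over all protein-coding genes, 18% and 9.39%, as dashed and dotted lines. Naive regulators, pluripotency markers and FGF genes reach 50.0% or more on the dark bars, and DNA methylation and histone modifiers reach 33.3% on the dark bar and 6.67%, near the dotted line, on the light bar.

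Counts at marker genes are given as a description. They use the same peaks that chose the members, so they do not check cell identity. The background is 18% of protein-coding genes with a member. All 9 pluripotency markers had an ESC peak within 5 kb of a start site, and 7 had a member, while 6 had a MEF peak, 5 a day 5 peak and 5 a day 10 peak in some region near a start site. Of the 7 fibroblast markers, 0 had a member, although 5 had an ESC peak and all 7 a MEF peak. Of 5 primitive endoderm markers 1 had a member (Gata4), and of 5 trophoblast markers 2 had one (Cdx2 and Elf5). The part that feeder fibroblasts could play in the ESC list was not tested.

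The members with the highest fold enrichment formed a different set of genes. The top 12 ran from 6.97 to 8.81, and 5 of the 12 lay nearest to pseudogenes or a non-coding transcript. Among the top 12 that covered a start site of a protein-coding gene with no other region, 5 belonged to genes whose protein is named a zinc finger protein in RefSeq (Zfp345, Gm14124, Gm14139, 2410141K09Rik and Zfp936). On chromosome 2, Zfp345 (chr2:150484866-150485631, fold 7.96), Gm14124 (chr2:150256997-150257768, fold 7.71) and Gm14139 (chr2:150181237-150182001, fold 6.37) had members of 765 to 772 bp over their start sites. Their upstream sequences are shown because each carries an octamer and the NF-Y sequence, a CCAAT box, and Gm14124 carries the latter at 2 places. The same stretch of 2410141K09Rik (fold 7.23) held neither full match. It holds CCAATCAA, which differs from the NF-Y sequence only in the last letter, so a CCAAT box is present there too. The stretch was 50.8% identical to that of Zfp345 and is not shown. Each run gives the 250 bp before the start site in the direction of the gene, with octamer and NF-Y matches in capitals.
Zfp345 (chr2:150485092-150485341, - strand): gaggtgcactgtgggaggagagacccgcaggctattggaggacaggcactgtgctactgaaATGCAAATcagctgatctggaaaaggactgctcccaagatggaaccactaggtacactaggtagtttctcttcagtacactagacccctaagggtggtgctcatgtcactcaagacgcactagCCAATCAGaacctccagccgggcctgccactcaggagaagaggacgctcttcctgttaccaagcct
Gm14124 (chr2:150257267-150257516, + strand): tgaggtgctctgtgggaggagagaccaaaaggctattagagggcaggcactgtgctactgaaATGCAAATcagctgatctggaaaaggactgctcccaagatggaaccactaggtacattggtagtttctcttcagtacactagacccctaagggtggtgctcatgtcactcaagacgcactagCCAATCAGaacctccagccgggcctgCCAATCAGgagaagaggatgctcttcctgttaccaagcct
Gm14139 (chr2:150181505-150181754, + strand): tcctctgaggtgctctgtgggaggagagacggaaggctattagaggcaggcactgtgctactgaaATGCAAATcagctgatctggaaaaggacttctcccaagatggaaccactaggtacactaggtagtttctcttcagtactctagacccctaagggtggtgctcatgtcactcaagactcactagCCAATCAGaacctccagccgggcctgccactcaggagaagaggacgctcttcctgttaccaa

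The runs of Zfp345 and Gm14124 were 95.6% identical, those of Zfp345 and Gm14139 92.4%, and those of Gm14124 and Gm14139 92.0%. Reads from such copies are hard to tell apart, and the values of the 3 genes are not independent. Gm14393, 2410141K09Rik, Gm2381 and Zfp936 had start-site members with folds of 7.09, 7.23, 5.98 and 5.75. On the X chromosome, Fmr1nb and Mageb16, of cancer-testis antigen families, had start-site members with folds of 6.97 and 5.34. The zinc finger group was noticed after the values were seen. Over all 542 genes with such a name, 101 had a member (18.6%), close to the background of 18%, and 10 of these (9.90%, interval 5.47% to 17.3%) had members alone, against 21.6% of all genes with a member.

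By number of members, Dnah8, an axonemal dynein, led with 6, spread over the gene with folds from 2.53 to 3.93. Etl4, C2cd5, Myo10, Fnbp1, Jakmip1, Cep128, Plekha7 and Cobl had 5 each. Ikbkb had 4, as did Esrrb, and took the tenth place by its highest fold. The Ikbkb members included one with a fold of 7.15, in an intron 4903 bp from a start site. Etl4 had a member with a fold of 5.48, 1228 bp from an internal start site. These genes have between 10 and 20 annotated start sites. The members of Cobl lay inside the gene and upstream of it, and those of Plekha7, a protein of cell junctions, lay inside the gene.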

How the data were processed

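Accessible chromatin was profiled by ATAC-seq in 8 libraries, 2 per group. Per the labels' processing notes, the authors mapped reads to mm10 and used Bowtie2 2.2.0. The peak caller and its settings are not given in the sources used here. The deposited lists hold 1 peak set per group, with a score, a fold enrichment (ratio) and the −log10 of p (not used) and of q for each peak. Peak names were those of replicate 1, so a fold was read as that of a whole replicate 1 peak, which no source states.

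Peaks within 400 bp were merged. Start sites and genes came from GENCODE M21, and sequence and repeat masking from GRCm38 (RefSeq). Motifs (20) were searched on both strands in 200 bp windows and in windows 1 kb to each side. Shares carry 95% Wilson intervals and differences 95% Newcombe intervals. Regions are not replicates. The analysis used Python 3.11.15, pandas 2.3.3, NumPy 2.4.6, SciPy 1.17.1, pysam 0.24.0, samtools 1.23.1 and Matplotlib 3.10.9, and was tested on simulated data.

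Members and the 13 gene lists were chosen with earlier results of these data known. Genes were named when a list held them and they had a member, when they were among the 10 with most members (ties by the highest fold), or when their member was among the 12 highest by fold, overall or over a start site of a gene with members alone. Regions for printed sequence were the highest by fold for each motif, listed genes first, overlapping no exon and not on chromosome 18. Alternatives changed the window, the annotation, the peak threshold, the number of ESC peaks, the merge distance and the motif window. Comparison between libraries was not possible from 1 list per group.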

Additional observations from a re-analysis of the deposited data

How the results depend on the processing

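The count of 7245 members depended on the settings, and the motif differences kept their direction. With a window of 1 kb it was 2831, with 10 kb 11491, with start sites of protein-coding transcripts only 2911, with the higher-scoring 50% of each list 3963, and with as many ESC peaks as the shortest list 4581. The share within 1 kb of a start site, 39.1%, became 34.7% with protein-coding transcripts only and 44.1% with the higher-scoring 50%. With a 1 kb window, the ESRRB difference from the flanks was 0.883 points and the SOX difference 1.25 (interval -0.20 to 2.76), and with protein-coding transcripts only the SOX difference was 1.70. In 100 bp sequence windows the differences were 0.656 (ESRRB), 0.656 (octamer), 2.14 (SOX) and 1.78 (KLF), and in 400 bp windows 2.01, 2.02, 5.07 and 6.17. Of 44 motif differences under the alternatives, 44 were above 0 and 43 had an interval above 0. The exception was the SOX difference in the 1 kb window.

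With the 5′-most start site of each gene only, a choice made after seeing the data, 2059 genes had a member, or 9.39%. List counts that fell more than 1.5-fold became 3 of 13 (formative), 5 of 32 (epithelial), 1 of 30 (fibroblast) and 1 of 16 (LIF). Further ones were 7 of 21 (FGF), 3 of 23 (Wnt), 2 of 30 (DNA methylation and histone modifiers) and 2 of 26 (germ-layer factors). The remaining lists stayed within 1.5 times the reported count. Of the planned values, 48 of 66 stayed within 1.5 times the reported count or within its interval. Genes with members alone were judged by their count only. As part of the genes with a member they were 851 of 3948 as reported, 662 of 1614 with a 1 kb window and 908 of 6529 with 10 kb. With protein-coding transcripts only they were 869 of 2827, and with the higher-scoring 50% of each list 967 of 2462. The share of 21.6% therefore depended on the settings.

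No paired analysis was possible because each group was deposited as 1 list, although the labels number the libraries alike across groups. Leaving out each replicate was not run for the same reason. Depth is unknown, and the part of depth in the member count was not tested.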

Other observations

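Some loci held several members, and those named here were chosen after their values were seen. Members less than 50 kb apart were joined, which gave 5175 loci, of which 3831 held 1 member and 62 held 5 or more. The loci of 5 or more held 374 members. How many such loci the density of genes would give was not tested. The protocadherin alpha cluster on chromosome 18, whose variable exons each have their own promoter, held 10 members among 10 regions over 81.2 kb, with folds from 2.78 to 4.59 and no peak of the MEF, day 5 or day 10 list. In the protocadherin gamma cluster, 9 of 13 regions were members, and MEF peaks occurred in 4 regions, day 5 peaks in 1 and day 10 peaks in 0. These genes encode cell adhesion proteins known for neuronal identity.

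On chromosome 2, between positions 87393424 and 87535279 of mm10, 8 of 10 regions were members near Pramel6, Pramel7 and olfactory receptor genes, with folds from 2.93 to 6.33, and the 10 regions held only ESC peaks. Pramel7 is known for its role in naive pluripotent cells. On chromosome 17, 11 of 17 regions between positions 36096909 and 36253726 were members (folds from 2.67 to 4.47), most of them nearest to pseudogenes and non-coding transcripts. Many of these genes have near-identical copies, so reads are hard to place. Around Tdgf1 on chromosome 9, 8 of 13 regions over 143 kb were members.

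Per 100 annotated start sites, chromosomes held from 3.62 members (X) to 7.06 (chromosome 1), apart from Y, where 0 of 14 ESC peaks were members. As a share of ESC peaks, chromosome 7 was highest at 18.3% and chromosome 15 lowest at 12.4% among the chromosomes other than Y.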
